A study of Mus musculus with 27 samples.

Results

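The 9 genes described here encode enzymes that make, convert or clear steroid hormones: Cyp17a1, Hsd17b6, Hsd17b2, Hsd3b2, Hsd3b3, Hsd3b5, Srd5a1, Akr1d1 and Akr1c6. They were picked by gene symbol, and all 9 were found among the 21823 genes of the expression table. RNA was sequenced from laser-microdissected liver of female C57BL/6 wild-type (WT) mice, which the study's methods give as C57BL/6N. The mice were either non-pregnant (NP) or carrying litters, 8 or 16 days after coitum (dpc8, dpc16). Zone 1 lies around the portal vein, zone 3 around the central vein, and zone 2 is the parenchyma between them. There are 3 libraries in each of the 9 groups of stage and zone (27 in all, replicates 1 to 3). All groups share the wild-type genotype and carry no transgene or drug treatment, and the labels do not say how many animals a library holds or whether the zones of 1 number come from the same animal.

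The liver inactivates sex steroids and glucocorticoids, and steroid nuclei are also reshaped there on the way to bile acids. The reactions fall into a few classes. A hydroxylase-lyase (Cyp17a1) opens the way from progestogens to androgens, hydroxysteroid dehydrogenases (the Hsd17b and Hsd3b enzymes) exchange hydroxyl and keto groups, and reductases (Srd5a1, Akr1d1 and Akr1c6) reduce the ring or its keto groups. Hepatocytes along the portal to central axis differ in many such activities, and several of these genes are known to differ between male and female mouse liver.

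Values are FPKM, reads scaled to transcript length and to the mapped total of the library, so levels can be compared between genes per length. The depth estimated for the libraries was 7.413 to 32.83 M reads, and Alb held 3.71% to 21% of the summed FPKM. The zone labels were checked against 10 periportal and 10 pericentral marker genes. The summed FPKM of the pericentral list was 243 to 466 in the 9 zone 1 libraries and 6847 to 18330 in the 9 zone 3 libraries, and that of the periportal list was 5389 to 11380 in zone 1 and 390.7 to 3581 in zone 3, so neither pair of ranges overlapped. Hepatocyte markers summed to 32730 FPKM or more in every library. In 6 libraries labelled female (replicate 1 of zone 1 in both NP and dpc8, replicate 2 of NP zone 3 and of dpc8 zone 2, and replicate 3 of dpc16 zones 2 and 3), 4 Y-linked genes summed to 7.924 FPKM or more, against 2.973 or less in the other 21. The same 6 libraries had the highest level of 10 connective tissue and smooth muscle genes, with a mean log2(FPKM + 1) of 5.558 to 6.845 against 1.905 to 4.655. In dpc16 zones 2 and 3, replicate 3 also had the lowest hepatocyte marker sum of its group, 46670 FPKM against 177200 and 224700 in zone 2 and 62300 against 145600 and 155200 in zone 3. The same held for replicate 1 of NP zone 1 (37130 against 74390 and 97690) and of dpc8 zone 1 (37110 against 66500 and 56790). It also held for replicate 2 of dpc8 zone 2 (36490 against 48700 and 57670). NP zone 3 replicate 2, at 36790, lay between the others of its group at 32730 and 39850. Results that rest on these 6 libraries (the Y-linked libraries) are given with and without them, and what the other RNA adds to each result was not tested. In dissected tissue, fewer cells of a type and less RNA per cell cannot be told apart. A list of 10 marker genes of steroid-producing cells of the gonads and adrenal, which does not hold Hsd3b6, was near 0: together they reached at most 2.936 FPKM in any library, Star, the carrier of cholesterol into mitochondria, reached at most 1.342, Cyp11a1, which starts steroid synthesis from cholesterol, reached at most 0.437, and Cyp19a1, the aromatase, was listed at 0 in all 27 libraries. Hsd3b6, an isozyme also known from such cells, was at 32.9 and 13.9 FPKM in replicate 3 of dpc16 zones 2 and 3 and at 0.895 or less elsewhere.

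Gene positions are on mm10 (GRCm38), from GENCODE vM21. Cyp17a1 lies on chromosome 19 at 46667165 to 46673172, Hsd17b6 on chromosome 10 at 127990936 to 128007611 and Hsd17b2 on chromosome 8 at 117701904 to 117759027. Srd5a1 lies on chromosome 13 at 69573449 to 69611442, Akr1c6 on the same chromosome at 4434306 to 4457877, and Akr1d1 on chromosome 6 at 37530173 to 37568815. The 3 Hsd3b genes are neighbouring copies on the minus strand of chromosome 3, within a span of 144494 bases: Hsd3b5 at 98618634 to 98630252, Hsd3b2 at 98709255 to 98724543 and Hsd3b3 at 98741523 to 98763127. All 3 lie inside the span of Zfp697 on the opposite strand. Of the windows of 86 bases, the read length, in the longest coding transcript, 21.5% in Hsd3b3 and 12.2% in Hsd3b2 also occur in another gene, mainly in each other and in Hsd3b6, and 9.63% in Hsd3b5 also occur in Hsd3b4, Gm10681 or Gm4450. The share was 11.3% in Hsd17b6, shared with its retinol dehydrogenase neighbours such as Rdh1, and 15.3% in Srd5a1, all of it with Gm17108 of the same locus. It was 0 in Cyp17a1, Hsd17b2, Akr1d1 and Akr1c6. The authors kept uniquely mapped reads, so the levels of the Hsd3b genes and Hsd17b6 rest on the parts of the transcript that are their own and are less certain, the reads of Srd5a1 and Gm17108 could be split between them, and overlapping genes on the other strand could add reads where strand was not used.

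The 250 bases before the RefSeq start are shown for the genes whose levels differed most between zones, and for Hsd3b3, which is a copy of Hsd3b5. The build is GRCm38.p6, sequences run 5′ to 3′ on the gene's strand, and capitals mark letters that match a searched motif. The set of RefSeq promoters used held 7 of the 9 genes, so Cyp17a1 and Hsd17b2 are named only. Hsd17b6 is at chr10:128007612-128007861, minus strand, Srd5a1 at chr13:69611464-69611713, minus strand, Akr1c6 at chr13:4434093-4434342, plus strand, Hsd3b3 at chr3:98763129-98763378, minus strand and Hsd3b5 at chr3:98645535-98645784, minus strand. The RefSeq start of Hsd3b5 lies upstream of the GENCODE gene given above, so its promoter is that of the RefSeq transcript only.
Hsd17b6: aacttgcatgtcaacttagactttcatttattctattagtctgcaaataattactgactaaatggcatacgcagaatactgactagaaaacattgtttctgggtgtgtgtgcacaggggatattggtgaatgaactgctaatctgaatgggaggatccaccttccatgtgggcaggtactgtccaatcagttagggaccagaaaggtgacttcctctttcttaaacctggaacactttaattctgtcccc
Srd5a1: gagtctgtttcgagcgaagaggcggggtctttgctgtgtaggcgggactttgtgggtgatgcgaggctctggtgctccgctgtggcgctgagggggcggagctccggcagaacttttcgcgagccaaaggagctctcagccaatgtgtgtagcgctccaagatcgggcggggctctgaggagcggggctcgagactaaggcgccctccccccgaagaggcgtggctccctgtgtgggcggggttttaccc
Akr1c6: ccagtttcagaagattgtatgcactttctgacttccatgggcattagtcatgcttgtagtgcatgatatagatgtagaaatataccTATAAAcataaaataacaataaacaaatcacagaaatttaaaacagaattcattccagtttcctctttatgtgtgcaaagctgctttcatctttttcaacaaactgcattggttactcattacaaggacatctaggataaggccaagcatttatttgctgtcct
Hsd3b3: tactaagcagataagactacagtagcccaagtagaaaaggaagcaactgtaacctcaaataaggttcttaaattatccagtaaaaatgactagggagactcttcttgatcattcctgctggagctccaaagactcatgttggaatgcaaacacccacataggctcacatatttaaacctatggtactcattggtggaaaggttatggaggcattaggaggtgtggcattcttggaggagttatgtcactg
Hsd3b5: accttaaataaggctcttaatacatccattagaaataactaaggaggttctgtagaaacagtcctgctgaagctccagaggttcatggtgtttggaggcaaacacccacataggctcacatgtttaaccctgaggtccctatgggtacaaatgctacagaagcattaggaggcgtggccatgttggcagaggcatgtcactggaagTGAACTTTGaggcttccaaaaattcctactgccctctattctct

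The promoters of Hsd3b3 and Hsd3b5 were close copies. Over the 300-base windows from 250 bases before to 50 bases after the start, they aligned over 247 bases, of which 188 (76.1%) were identical, and they shared an unbroken run of 24 bases, gcaaacacccacataggctcacat, which begins at -105 in Hsd3b3 and at -153 in Hsd3b5 counted from the start. A letter match to the element bound by HNF4 factors, nuclear receptors of hepatocytes, lies downstream of that run in both. It reads TGAACTTTG at -44 in Hsd3b5 (CAAAGTTCA on the other strand) and TGGACTTTG at 4 bases past the start in Hsd3b3 (CAAAGTCCA on the other strand), shown here within 30 bases at chr3:98763105-98763134, minus strand.
Hsd3b3 site: tcactgaaagTGGACTTTGaagcttccagc
Among 32851 mouse promoters of this length, 0.39% held CAAAGTTCA and 0.475% held CAAAGTCCA on either strand. The Akr1c6 promoter held the TATA letters TATAAA at -164, as did 13.6% of all promoters. Akr1d1 held the C/EBP letters TTGCNNAA at -8, as did 10.8%, and the nuclear receptor half-site AGGTCA at -232 and -210, as did 16.3%. No match to the STAT5 letters TTCNNNGAA (8.3% of promoters) or the TCF/LEF letters ATCAAAG (3.73%) lay in these windows, which says nothing about either factor. Both strands were searched, and none of these matches overlapped another. A match of letters is a description of the sequence and was not tested as a site.

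The 9 transcripts changed in make-up from the portal to the central vein. Akr1c6 held 72.7% of their summed mean FPKM in zone 3 of NP liver, 72.8% at dpc8 and 74.8% at dpc16, against 22.4%, 20.7% and 6.57% in zone 1. In single libraries it held 67% to 77.2% in zone 3 and 15.8% to 26% in zone 1 of NP and dpc8, and 4.06%, 2.29% and 12.1% in the dpc16 zone 1 libraries, so the dpc16 share rests on replicate 3. Hsd17b6 and Cyp17a1 held 29.5% and 16.7% in zone 1 of NP liver and 45.5% and 34.7% in zone 1 at dpc16, and at most 2.1% each in zone 3 at any stage (at most 3.75% and 3.65% for Cyp17a1 and Hsd17b6 in a single zone 3 library, both at dpc16). Akr1d1 and Hsd17b2 each held 3.77% to 11.8% in all 9 groups, and Hsd3b2 and Hsd3b5 stayed at or under 1.02%. The sum itself ranged from 976.3 FPKM in dpc8 zone 1 to 2262 FPKM in dpc16 zone 1. The summed FPKM of all genes differed too, at 519848 to 614272 per library in dpc8 zone 1 and 876877 to 988500 in dpc16 zone 1. Its part in the difference was not tested.

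**Figure D1:**
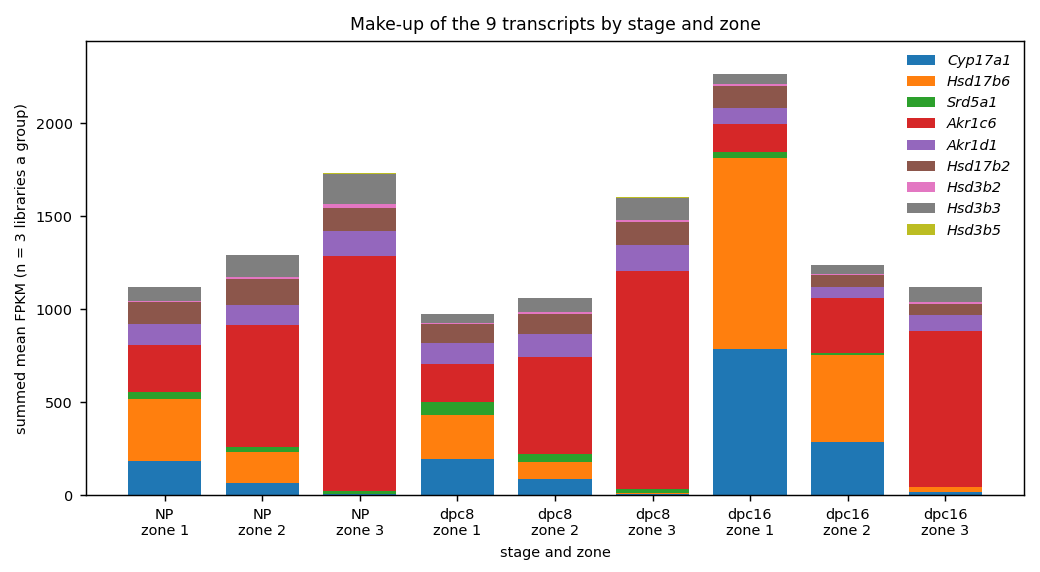
Summed mean FPKM of the 9 transcripts (vertical axis, n = 3 libraries a group) in each stage and zone (horizontal axis), with 1 colour per gene. Akr1c6 fills most of each zone 3 bar, and Hsd17b6 with Cyp17a1 fills most of the dpc16 zone 1 bar, which reaches 2262 FPKM.

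The comparison of zone 1 with zone 3 asks which of these enzymes are zonated. On log2(FPKM + 1) with limma and Benjamini-Hochberg adjustment over 12952 genes, 3 of the 9 genes passed an adjusted p of 0.05 in NP mice, where 1.34% of all genes tested did, 4 at dpc8 (1.61%) and 4 at dpc16 (1.55%). All 9 passed the filter of 1 FPKM in at least 3 libraries. Hsd3b5 passed it through 7 libraries, 5 of zone 3 and 2 of NP zone 2, and none of zone 1 or of dpc16, so its place among the genes tested rests on the zones and stages where it is high. Without it, the count called at dpc8 is 3 of 8. The values of zones 1 and 3 did not overlap for 6, 7 and 5 of the 9 genes at NP, dpc8 and dpc16, against 12.7%, 23.2% and 14.7% of all genes tested, and for 5, 6 and 4 of 8 without Hsd3b5. Cyp17a1 and Hsd17b6 were higher in zone 1 at all stages, Akr1c6 was higher in zone 3 at all stages, Srd5a1 was higher in zone 1 at dpc16 and Hsd3b5 was higher in zone 3 at dpc8.

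**Figure D2:**
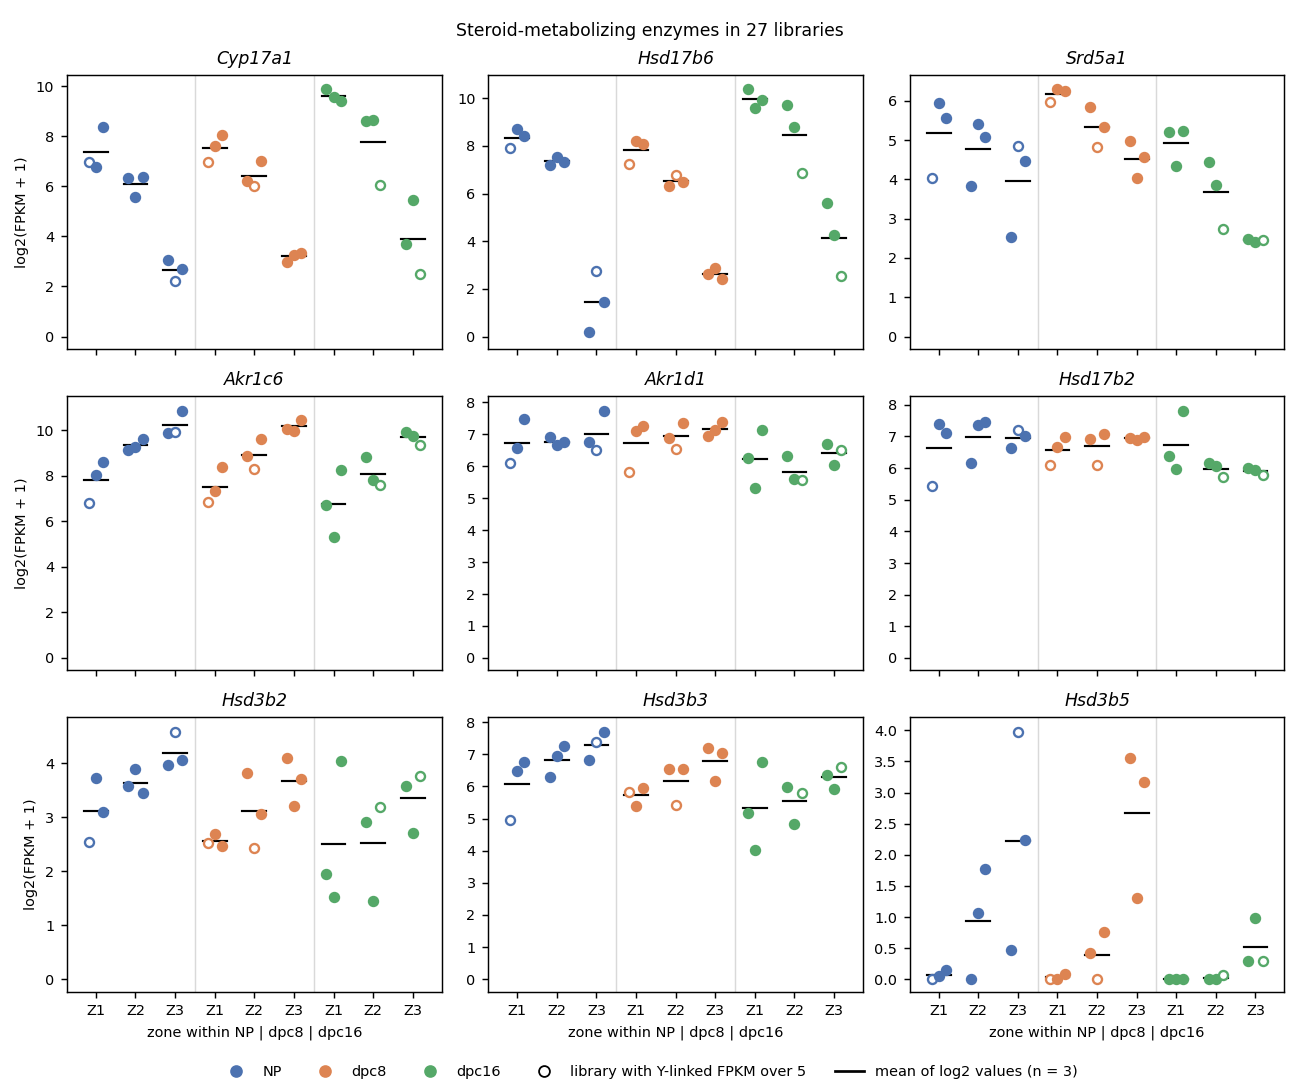
log2(FPKM + 1) of each gene (1 panel each, vertical axis) in the 27 libraries, by zone (Z1, Z2, Z3) within NP, dpc8 and dpc16 (horizontal axis), with lines at the mean of 3 libraries and open points for the 6 libraries with Y-linked FPKM over 5. Cyp17a1 and Hsd17b6 step down from zone 1 to zone 3 at each stage and Akr1c6 steps up, and the open points of dpc16 are the lowest of their group for Cyp17a1 and Hsd17b6.

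Cyp17a1, the hydroxylase-lyase of androgen synthesis, was read at 123, 107 and 329.9 FPKM in zone 1 of NP liver (replicates 1 to 3), at 79.7, 46.0 and 82.0 in zone 2 and at 7.38, 3.59 and 5.45 in zone 3. At dpc8 it was 123, 195 and 263 FPKM in zone 1, 73.9, 63.4 and 128 in zone 2 and 6.92, 8.57 and 9.12 in zone 3. At dpc16 it was 933, 753 and 672 FPKM in zone 1, 391, 401 and 64.7 in zone 2 and 11.9, 42.2 and 4.64 in zone 3. Zone 1 exceeded zone 3 in the fit at every stage (adjusted p of 0.0001935 or less), also with any 1 library left out. Every library of zones 1 and 2 lay above every library of zone 3 of the same stage, and also above the zone 3 libraries of the other stages. The mean in zone 1 was 187 ± 124 FPKM (SD, n = 3) in NP, 194 ± 70.1 at dpc8 and 786 ± 134 at dpc16, against 5.48 ± 1.90, 8.21 ± 1.14 and 19.6 ± 19.9 in zone 3. The fitted log2 fold change of zone 2 against zone 3 was 3.44 ± 0.63 (SE; limma adjusted p = 0.00791), 3.22 ± 0.63 (adjusted p = 0.0164) and 3.89 ± 0.63 (adjusted p = 0.00174). The dpc8 value kept its call without zone 2 replicate 2 (adjusted p = 0.0434) and lost it without any other of its 6 libraries (0.0562 to 0.115), and the NP value lost it without zone 2 replicate 3 (0.0648) or zone 3 replicate 2 (0.0523). Leaving out the 6 Y-linked libraries gave 3.21, 3.42 and 4.07, all past the threshold.

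Hsd17b6, an oxidative hydroxysteroid dehydrogenase related to the retinol dehydrogenases, ran from the portal to the central side in the same direction as Cyp17a1. It was 238, 417 and 336 FPKM in zone 1 of NP liver, 144, 187 and 161 in zone 2 and 0.146, 5.68 and 1.71 in zone 3. The values at dpc8 were 149, 298 and 269.5 FPKM in zone 1, 79.7, 109 and 89.1 in zone 2 and 5.10, 6.34 and 4.39 in zone 3. The values at dpc16 were 1324, 779.8 and 983 FPKM in zone 1, 849, 442 and 114 in zone 2 and 47.5, 18.3 and 4.86 in zone 3. No library of zone 1 or zone 2 overlapped zone 3 at any stage, and the fitted zone 1 difference passed at every stage (adjusted p of 3.31e-05 or less), also with any 1 library left out. The mean in zone 1 was 330.4 ± 89.8 FPKM (SD, n = 3) in NP, 239 ± 79.3 at dpc8 and 1029 ± 275 at dpc16, against 2.51 ± 2.85, 5.27 ± 0.986 and 23.5 ± 21.8 in zone 3. Zone 2 exceeded zone 3 by a log2 fold change of 5.90 ± 0.66 (adjusted p = 1.074e-05), 3.90 ± 0.66 (adjusted p = 0.00463) and 4.32 ± 0.66 (adjusted p = 0.000889), which is 2 of 9 genes called at each stage with Cyp17a1, against 0.401%, 0.347% and 0.517% of all genes. The values of zones 2 and 3 lay apart for 4, 4 and 5 of the 9 genes, against 11.7%, 13.9% and 7.13% of all genes, and for 4, 3 and 4 of 8 without Hsd3b5. When the dpc16 zones 2 and 3 were fitted without the other groups, both genes lost this call, with adjusted p of 0.751 for Cyp17a1 and 0.606 for Hsd17b6.

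Between zones 1 and 2 none of the 9 genes passed the threshold in limma at any stage, and 0.154%, 0.124% and 0.139% of all genes did. At an unadjusted p under 0.05, 1, 1 and 4 genes passed at NP, dpc8 and dpc16, against 5.34%, 3.4% and 5.13% of all genes. The zones lay apart for 3, 2 and 1 of the 9, against 10.1%, 7.44% and 8.85% of all genes. The log2 differences were 1.27, 1.13 and 1.84 for Cyp17a1 and 0.98, 1.31 and 1.52 for Hsd17b6, with adjusted p of 0.727 or more. In the order of the 9 groups, Cyp17a1 in dpc16 zone 1 lay apart from the next group, the groups from dpc16 zone 2 down to NP zone 2 overlapped their neighbours, and the 3 zone 3 groups lay apart below them and overlapped each other. For Hsd17b6, dpc16 zones 1 and 2, zone 1 of NP and dpc8 and NP zone 2 formed a chain of overlapping neighbours, dpc8 zone 2 lay apart below it, and the zone 3 groups lay apart below that and overlapped each other.

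Srd5a1, which reduces testosterone and progesterone to their alpha-reduced forms, ran in the same direction with smaller steps. In NP liver its level was 15.5, 61.0 and 46.5 FPKM in zone 1 and 4.79, 27.8 and 21.1 in zone 3, and these ranges overlapped. At dpc8 it was 61.2, 77.4 and 75.3 FPKM in zone 1 and 30.4, 15.3 and 22.6 in zone 3. At dpc16 it was 35.8, 19.3 and 36.9 FPKM in zone 1, 20.8, 13.6 and 5.62 in zone 2 and 4.62, 4.31 and 4.47 in zone 3, where the SD of the 3 libraries was 0.153 FPKM. Zones 1 and 3 did not overlap at dpc8 or dpc16. The mean in zone 1 was 2.29, 3.13 and 6.87 times that in zone 3, and the log2 fold change was 1.24 ± 0.56 (adjusted p = 0.553), 1.65 ± 0.56 (adjusted p = 0.18) and 2.48 ± 0.56 (adjusted p = 0.0163). The dpc16 call held without zone 1 replicate 2 (adjusted p = 0.0235) and was lost without any other of its 6 libraries (0.0558 to 0.0926). The dpc8 difference passed with array weights (0.00661), with a connective tissue covariate (0.041) and when only the compared groups were fitted (0.0425). Without the 6 Y-linked libraries the NP difference was 2.26 and passed (adjusted p = 0.0465).

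Akr1c6, an aldo-keto reductase of liver that reduces keto groups of androgens and oestrogens, ran the other way and was the most abundant of the 9 transcripts in zone 3 at every stage. In NP liver it was 109.8, 259.9 and 384 FPKM in zone 1, 564, 608 and 791 in zone 2 and 948, 967 and 1862 in zone 3. At dpc8 it was 114, 160.4 and 333 FPKM in zone 1, 470.2, 311 and 787 in zone 2 and 1077, 1016 and 1409 in zone 3. At dpc16 it was 105, 39.1 and 301 FPKM in zone 1, 460.2, 228 and 195 in zone 2 and 981, 869 and 659.8 in zone 3. Zone 3 lay above zones 1 and 2 of its stage in every library. The mean in zone 3 was 1259 ± 522 FPKM (SD, n = 3) in NP, 1167 ± 211 at dpc8 and 836 ± 163 at dpc16, against 251.4 ± 137, 202 ± 116 and 149 ± 136 in zone 1. The log2 fold change of zone 1 against zone 3 was -2.42 ± 0.57 (adjusted p = 0.031), -2.65 ± 0.57 (adjusted p = 0.0134) and -2.92 ± 0.57 (adjusted p = 0.00446). The NP call was lost without the Y-linked libraries (-2.07, adjusted p = 0.164), where NP zone 1 replicate 1 is the lowest value of its group. Of its 6 libraries it held without zone 1 replicate 3 (0.0225) and was lost without any other (0.0622 to 0.247). The dpc8 call was lost without zone 1 replicate 1 (0.104), zone 1 replicate 2 (0.0605) or zone 3 replicate 3 (0.0829), and the dpc16 call without zone 1 replicate 2 (0.0527). When only the compared groups were fitted, the NP and dpc16 calls were lost (0.15 and 0.128). Zone 2 did not differ from zone 3 past the threshold (log2 -0.88, -1.25 and -1.59, adjusted p of 0.642 or more), although the ranges were apart at each stage. The dpc16 difference passed in 1 of the 8 alternatives (adjusted p = 0.0449).

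Akr1d1, the reductase that gives steroids and bile acid precursors their beta-reduced bent ring, had no called zone difference. Its lowest and highest values were 67.3 and 178 FPKM in zone 1 and 90.5 and 213 in zone 3 of NP liver, 56.1 and 152 and then 123 and 167 at dpc8, and 38.7 and 141 and then 64.7 and 103 at dpc16. The log2 difference of zone 1 from zone 3 was -0.28 (95% interval -1.19 to 0.63), -0.43 (-1.34 to 0.48) and -0.18 (-1.09 to 0.74). The sign turned when single libraries were left out. Hsd17b2, which oxidizes oestradiol and testosterone to less active keto forms, was also without a called zone difference. The intervals were -1.27 to 0.64 in NP, -1.32 to 0.59 at dpc8 and -0.13 to 1.78 at dpc16, around -0.31, -0.37 and 0.82. Its zone 3 libraries of dpc8, at 119 to 126 FPKM, and of dpc16, at 54.1 to 63.4 FPKM, were close to one another within each stage.

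The Hsd3b enzymes convert the hydroxyl group of the steroid A ring to a keto group or, in the liver forms such as Hsd3b5, act mainly as reductases. Hsd3b3 was the most abundant of the 3 and was 30.1, 87.8 and 106 FPKM in zone 1 and 112, 164 and 205 in zone 3 of NP liver. At dpc8 it was 55.3, 40.9 and 60.5 FPKM in zone 1 and 146, 71.0 and 129 in zone 3, and at dpc16 it was 35.3, 15.2 and 108 in zone 1 and 79.97, 60.002 and 96.0 in zone 3. Zone 1 lay below zone 3 without overlap in NP and at dpc8, and the zones overlapped at dpc16 through replicate 3 of zone 1. The log2 fold change of -1.23, -1.08 and -0.97 did not pass (adjusted p = 0.543, 0.432 and 0.773). Hsd3b2 was lower throughout, at 1.72 to 22.8 FPKM, and gave -1.08, -1.11 and -0.85, also without a call. Hsd3b2 and Hsd3b3 went together over the 27 libraries (Pearson's r 0.901, and 0.813 after the group means were removed), as a description of libraries that share depth and of transcripts that share sequence.

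Hsd3b5, a form best known from male mouse liver, was read at low levels outside zone 3. It was listed at 0 in 10 of the 27 libraries. In zone 1 the highest of 9 values was 0.105 FPKM, which corresponds to about 2.95 reads by the depth estimate. In zone 2 it was 0, 1.09 and 2.40 FPKM in NP, 0.335, 0 and 0.691 at dpc8 and 0, 0 and 0.0445 at dpc16. In zone 3 it was 0.387, 14.7 and 3.72 FPKM in NP, 10.7, 1.47 and 7.98 at dpc8 and 0.22, 0.976 and 0.228 at dpc16. Zones 1 and 3 did not overlap at any stage, and zone 2 overlapped zone 3 in NP. The log2(FPKM + 1) difference of zone 1 from zone 3 was -2.16 ± 0.61 in NP (adjusted p = 0.109), -2.64 ± 0.61 at dpc8 (adjusted p = 0.0244) and -0.52 ± 0.61 at dpc16 (adjusted p = 0.946), and at these low values it depends on the pseudocount of 1 and gives no fold. With a pseudocount of 0.1 the dpc8 difference was -5.45. The dpc8 call held without zone 3 replicate 2 (adjusted p = 0.00427) and was lost without any other of its 6 libraries (0.063 to 0.149) and when only the compared groups were fitted (0.0922). The highest value, in NP zone 3 replicate 2, came from a library with Y-linked FPKM, while the other 5 such libraries held 0 to 0.228 FPKM of Hsd3b5. A list of 10 genes known to be higher in male liver summed to 398 FPKM in that library, between the 228 and 480.3 of the other NP zone 3 libraries. Without the 6 libraries the NP difference was -1.25 (adjusted p = 0.568), and without NP zone 3 replicate 1, the lowest of its group, it was -3.04 and passed (adjusted p = 0.00345). The NP difference also passed with the replicate number as a block (adjusted p = 0.0369).

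**Figure D3:**
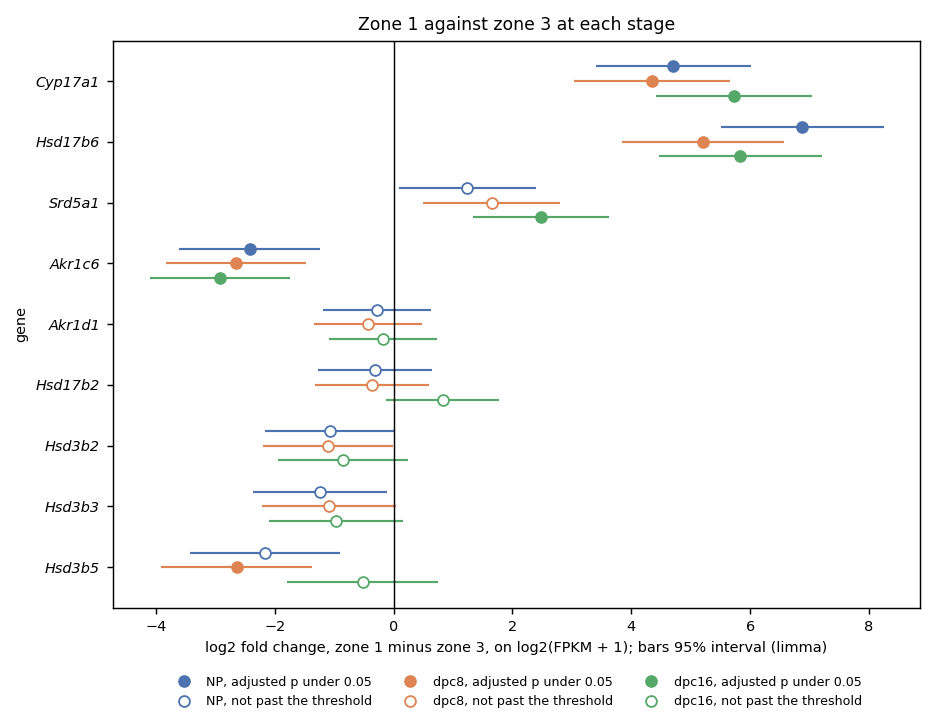
Log2 fold change of zone 1 against zone 3 on log2(FPKM + 1) (horizontal axis) for each gene (vertical axis) in NP, dpc8 and dpc16, with 95% intervals from limma and filled points for an adjusted p under 0.05. Cyp17a1 and Hsd17b6 lie between 4.35 and 6.88, Akr1c6 between -2.92 and -2.42, and Akr1d1 within 0.44 of 0. The Hsd3b5 value at dpc16 is set against zone 1 libraries listed at 0.

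The wider pathway was read from 38 further genes of steroid synthesis and conversion, of which 34 were in the table and 20 passed the filter. Of these 20, 1 was called higher and 2 lower in zone 1 than in zone 3 in NP (0.525% and 0.811% of all genes), 2 higher and 2 lower at dpc8 (0.679% and 0.926%), and 1 higher and 2 lower at dpc16 (0.78% and 0.772%). The median log2 difference was -0.49, -0.63 and -0.15, beside 0.03, 0.08 and -0.02 over all genes tested. Hsd17b13, a hydroxysteroid dehydrogenase of lipid droplets, was higher in zone 1 by 4.82, 3.72 and 5.69. Cyp7b1, a hydroxylase of oxysterols and neurosteroids, was lower in zone 1 by log2 differences of -2.35, -2.39 and -2.14, and Akr1c20, a neighbour of Akr1c6 in sequence and position, by -1.71, -1.74 and -1.49. Hsd3b1 was higher in zone 1 at dpc8 by 1.35 and reached at most 3.54 FPKM. The Hsd17b13 calls held with any 1 library left out, while those of Cyp7b1 were lost for 3, 4 and 4 of 6 libraries, of Akr1c20 for 2, 2 and 5 of 6, and of Hsd3b1 for 5 of 6. Cyp7b1 in NP had an adjusted p of 0.0183, and 0.106 without the Y-linked libraries. Of the 8 alternatives, the calls of Cyp7b1 were lost in 2, 1 and 1 at NP, dpc8 and dpc16 (adjusted p up to 0.118). Those of Akr1c20 were lost in 1, 1 and 2 (up to 0.185), and that of Hsd3b1 at dpc8 in 3 (up to 0.137).

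The comparison of the pregnant stages with NP asks which enzymes change in pregnancy. At dpc8 none of the 9 genes passed in limma in any zone, at an adjusted or an unadjusted p of 0.05, and 0.0309%, 0.00772% and 0.0154% of all genes passed the adjusted threshold in zones 1, 2 and 3 and 3.13%, 5.06% and 2.74% the unadjusted one. The values of dpc8 and NP lay apart for 1, 1 and 0 of the 9, against 6.52%, 10% and 9.81% of all genes. Averaged over the zones, none passed either (0.108% of all genes did), and 1 gene, Srd5a1, had an unadjusted p under 0.05, as did 6.11% of all genes. Srd5a1 was at 61.2 to 77.4 FPKM in zone 1 at dpc8 against 15.5 to 61.0 in NP, and the 2 groups lay apart (61.24 against 60.97 FPKM at the nearest). Its log2 change over the zones was 0.70 ± 0.32 (adjusted p = 0.777).

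Averaged over the zones, Cyp17a1 and Hsd17b6 rose at dpc16 against NP and Hsd3b3 fell. The log2 change was 1.72 ± 0.36 for Cyp17a1 (adjusted p = 0.003), 1.81 ± 0.38 for Hsd17b6 (adjusted p = 0.00282) and -1.01 ± 0.31 for Hsd3b3 (adjusted p = 0.0389), so that 3 of the 9 passed, against 11.8% of all genes. The calls of Cyp17a1 and Hsd17b6 held in all 8 alternative analyses and without any single library. The Hsd3b3 call was lost with the replicate number as a block (adjusted p = 0.0822), without the filter on low values (0.0575), when only the compared groups were fitted (0.0761) and for 11 of the 18 libraries left out in turn (0.058 to 0.0957), the highest p without dpc16 zone 1 replicate 2. The remaining 6 genes gave -0.95 for Srd5a1, -0.94 for Akr1c6, -0.90 for Hsd3b5, -0.86 for Hsd3b2, -0.67 for Akr1d1 and -0.66 for Hsd17b2, with adjusted p from 0.0566 to 0.12, and each of the 9 genes had an unadjusted p under 0.05, as did 23.8% of all genes. Hsd3b5 passed the filter through NP and dpc8 libraries only, and without it this count is 8 of 8. Without the Y-linked libraries Hsd3b2 (-1.08, adjusted p = 0.0436), Akr1d1 (-0.82, 0.036) and Hsd17b2 (-0.75, 0.0467) passed, and Akr1c6 (-1.02, 0.0565), Srd5a1 (-0.83, 0.0693) and Hsd3b5 (-0.59, 0.301) did not. The median change over all genes tested was -0.01. Hepatocyte marker levels also moved with stage: outside the Y-linked libraries their sum was 145600 to 224700 FPKM at dpc16 and 32730 to 97690 in NP, and Alb held 15.2% to 21% and 3.71% to 12% of the summed FPKM. Their part in these changes was not tested.

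Within single zones, 1 gene passed at dpc16 against NP. Hsd17b6 rose in zone 3 by 2.68 ± 0.66 (adjusted p = 0.0439), from 0.146, 5.68 and 1.71 FPKM to 47.5, 18.3 and 4.86, and the groups overlapped through the Y-linked libraries, NP replicate 2 and dpc16 replicate 3. Without these libraries the change was 4.12 (adjusted p = 2.545e-05). With all libraries, the call was lost without the filter (0.0672), when only the compared groups were fitted (0.344) and when replicate 1 or 3 of NP (0.24 and 0.141) or replicate 1 or 2 of dpc16 (0.264 and 0.152) was left out. That is 0, 0 and 1 of 9 genes in zones 1, 2 and 3, against 1.37%, 2.66% and 1.32% of all genes, and 2, 6 and 4 genes at an unadjusted p under 0.05, against 11%, 16.6% and 11.5% (3 of 8 in zone 3 without Hsd3b5). The groups lay apart for 2, 4 and 4 of the 9, against 17.4%, 17.4% and 16.7% of all genes.

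The zone 1 libraries of Cyp17a1 at dpc16, at 672 to 933 FPKM, all lay above the 107 to 329.9 of NP, and the log2 change was 2.24 ± 0.63 (adjusted p = 0.0901). In zone 2 it was 1.68 ± 0.63 (adjusted p = 0.167), where dpc16 replicate 3, a Y-linked library, lay within the NP range and the other 2, at 391 and 401 FPKM, lay above it. Without the Y-linked libraries the changes were 2.04 in zone 1 (adjusted p = 0.0234), 2.55 in zone 2 (adjusted p = 0.00342) and 1.68 in zone 3 (adjusted p = 0.0813), and the zone 2 change of Hsd17b6 was 1.90 (adjusted p = 0.00804). Hsd17b6 in zone 1 changed from 238 to 417 FPKM in NP to 779.8 to 1324 at dpc16, apart, with a log2 change of 1.64 ± 0.66 (adjusted p = 0.323). This change passed in none of the 8 alternatives, of which 1 leaves out the Y-linked libraries (adjusted p of 0.0598 or more).

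**Figure D4:**
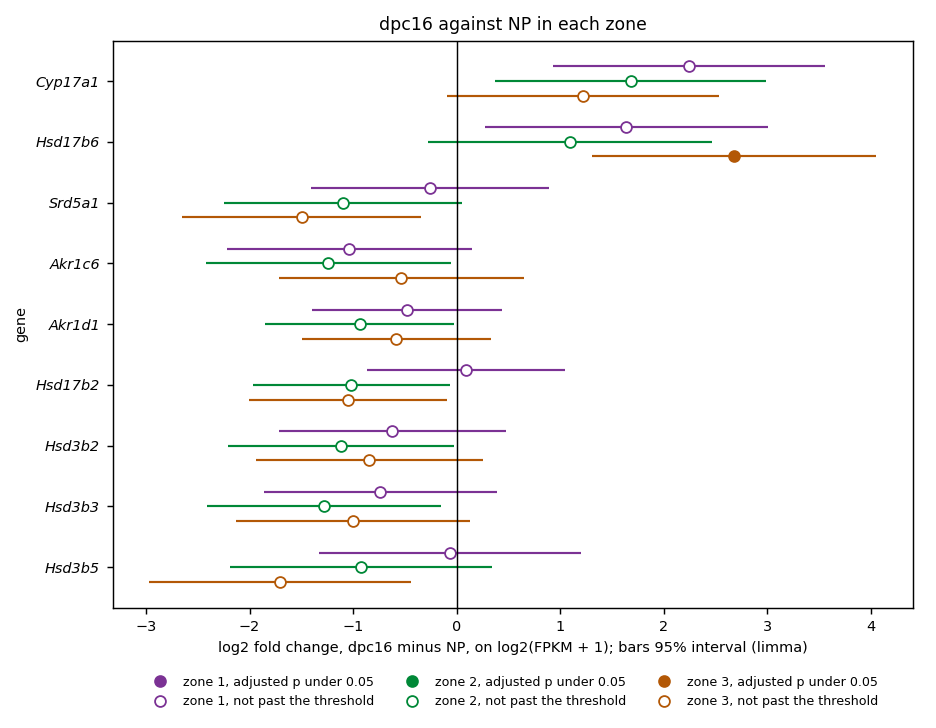
Log2 fold change of dpc16 against NP on log2(FPKM + 1) (horizontal axis) for each gene (vertical axis) in zones 1, 2 and 3, with 95% intervals from limma and filled points for an adjusted p under 0.05. Cyp17a1 and Hsd17b6 lie between 1.10 and 2.68 in all 3 zones, and the Hsd17b6 value of zone 3 is the 1 filled point. All other values lie at or below 0.09, and Hsd3b5 is near or at 0 FPKM in zone 1 at both stages.

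Whether the change at dpc16 differed between zones was tested directly. None of the 9 genes passed for zone 1 against zone 3, zone 1 against zone 2 or zone 2 against zone 3 in limma, at an adjusted or an unadjusted p of 0.05, and 0.054%, 0% and 0.0154% of all genes passed the adjusted threshold and 3.16%, 4.29% and 2.47% the unadjusted one. The change at dpc8 was tested for zone 1 against zone 3, also with none of the 9 passing either threshold (0% and 2.36% of all genes). The difference of the change in zone 1 from that in zone 3 was 1.02 for Cyp17a1 (95% interval -0.83 to 2.88) and -1.04 for Hsd17b6 (-2.98 to 0.90).

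Hsd17b2 had a log2 change at dpc16 of 0.09 in zone 1, -1.02 in zone 2 and -1.05 in zone 3, none of them called (adjusted p = 0.958, 0.265 and 0.365). Its zone 3 values of 54.1 to 63.4 FPKM all lay under the 97.9 to 148 of NP. In zone 1, dpc16 replicate 3 at 224 FPKM stood above the other 2 at 62.5 and 83.2, and the sign of the zone 1 change turned without it (-0.45).

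The groups of dpc16 and dpc8 were also compared, with the dpc16 libraries shared with the comparison above. None of the 9 genes passed in limma in any zone, against 2.01%, 1.51% and 1.37% of all genes, and 3, 4 and 4 genes had an unadjusted p under 0.05 in zones 1, 2 and 3, against 13.4%, 12.1% and 12.4% of all genes (3 of 8 in zone 3 without Hsd3b5). Srd5a1 was the gene whose dpc8 and dpc16 values lay apart in all 3 zones. Its zone 2 libraries were at 56.5, 27.3 and 39.6 FPKM at dpc8 and 20.8, 13.6 and 5.62 at dpc16, and the mean was 2.33, 3.08 and 5.1 times as high at dpc8 as at dpc16 in zones 1, 2 and 3. The log2 change was -1.24 ± 0.56, -1.66 ± 0.56 and -2.07 ± 0.56, with adjusted p of 0.33, 0.171 and 0.0652. The zone 3 value passed without the Y-linked libraries (adjusted p = 0.0288), with array weights (0.00164), with a connective tissue covariate (0.0312) and when only the compared groups were fitted (0.0292). Hsd3b5 in zone 3 changed by -2.15 ± 0.61 (adjusted p = 0.0861), from 1.47 to 10.7 FPKM at dpc8 to 0.22 to 0.976 at dpc16, without overlap, and it was among the genes tested through the earlier stages only. The count of non-overlapping genes was 3, 3 and 5 of 9, against 19.9%, 13.8% and 23.3% of all genes, and 4 of 8 in zone 3 without Hsd3b5. Hsd17b6 changed by 2.13, 1.92 and 1.5 and Cyp17a1 by 2.07, 1.35 and 0.68, with adjusted p of 0.105 or more, and without the Y-linked libraries Hsd17b6 passed in all 3 zones and Cyp17a1 in zones 1 and 2 (adjusted p = 0.000887 to 0.039).

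Of the 20 wider pathway genes, none passed at dpc16 against NP in any single zone in limma, where 1.37%, 2.66% and 1.32% of all genes did. At an unadjusted p under 0.05, 2, 7 and 5 passed, against 11%, 16.6% and 11.5% of all genes. Averaged over the zones, 2 rose and 5 fell (5.65% and 6.15% of all genes), and they are named here although the rule for naming genes does not cover this comparison. Hsd11b1, which regenerates active glucocorticoid, rose by 1.02 ± 0.25 and Hsd3b1 by 0.71 ± 0.18. Akr1c19, Hsd3b7, Hsd17b13, Akr1c13 and Akr1c20 changed by -1.18, -1.12, -0.93, -0.77 and -0.67. Hsd3b7 is a dehydrogenase of bile acid synthesis. The calls of Hsd11b1, Hsd3b1 and Akr1c19 held with any 1 library left out, and those of Hsd3b7, Akr1c20, Hsd17b13 and Akr1c13 were lost for 11, 13, 4 and 4 of 18 libraries. With the replicate number as a block, the calls of Hsd3b1, Hsd3b7, Akr1c20, Hsd17b13 and Akr1c13 were lost (adjusted p of 0.065 to 0.131), and those of Hsd11b1 and Akr1c19 were not.

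Genes outside the 9 that followed 8 of them most closely over the 27 libraries were found by Pearson's r of log2(FPKM + 1), which mixes differences of zone, stage and library and is given as a description. For both Cyp17a1 and Hsd17b6 the first was Aldh1b1, a mitochondrial aldehyde dehydrogenase (r 0.944 and 0.94), followed by Sdsl (0.933 and 0.929). Cyp17a1 and Hsd17b6 correlated with each other at 0.939, and at 0.426 once group means were removed. Akr1c6 was followed by Akr1c20 (0.948), Rgn (0.946) and Pon1 (0.932). Car3 came first for Hsd3b2 (0.821) and Hsd3b3 (0.889), Sult5a1 for Srd5a1 (0.876), Papss2 for Akr1d1 (0.908) and Lin7a for Hsd17b2 (0.885). Akr1d1 and Akr1c6 differ in zonation, yet their values moved together within groups (r 0.889 once group means were removed).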

How the data were processed

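RNA of laser-microdissected liver zones was sequenced (single-end reads of 86 bases) in 27 libraries. Per the study's methods and processing notes, the authors trimmed reads with cutadapt, aligned them to mm10 by HISAT2 2.1.0 and, from the reads mapped to 1 place, obtained FPKM per protein-coding gene with Cuffdiff (Cufflinks 2.2.1). The deposited FPKM values hold no read counts. Read depth was estimated from the spacing of low FPKM values, under an assumed fragment length. It was chosen to make these values whole multiples within 0.1, which 93.55% to 98.71% per library then were. That share was fitted and is no check of the depth. By this estimate 1 read on a transcript of 1 kilobase is 0.0305 to 0.135 FPKM. No interval was computed from these depths.

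Groups were taken from sample titles. The 12952 genes that reached 1 FPKM in 3 or more libraries were tested. log2(FPKM + 1) was fitted with 9 group means in limma 3.58.1 (R 4.3.3), with trend and robust settings, two-sided tests and Benjamini-Hochberg adjustment within each contrast at 0.05. A fold change on this scale understates changes of weakly expressed genes. The contrasts compare zones within stages, stages within zones, stages averaged over zones, and zones in their stage change. All 9 members were named throughout. From the wider pathway, up to 3 genes per direction past the threshold were named in zone 1 against zone 3 and in dpc16 against NP, and up to 3 genes of highest correlation were named for each member (those of Hsd3b5 are not reported here). The members and lists were chosen with earlier results of these data known. The labels do not say whether replicates came from separate animals, while the study describes the zone data as 3 independent experiments, so p-values measure the spread between these libraries. The procedure was also run on simulated data of independent libraries. These did not model libraries that deviate together or single outlying libraries, so they do not test the procedure for such cases.

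Alternatives were a pseudocount of 0.1, no filter, quantile normalization, array weights, a replicate block, a fit of the compared groups alone, a connective tissue covariate (the mean log2 level of 10 genes), removal of the 6 libraries with Y-linked FPKM over 5, and removal of each library. Positions come from GENCODE vM21, where 21609 of 21823 identifiers matched with the same version. Promoters come from RefSeq (GRCm38.p6) and were aligned with Biopython.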

Additional observations from a re-analysis of the deposited data

How the results depend on the processing

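Counts of the 9 genes called were summed over the contrasts of a comparison. For zone 1 against zone 3 the count was 11 (9 to 12 in 8 alternatives, 9 to 11 with 1 library left out), beside 1.5% of all gene tests. For zone 2 against zone 3 it was 6 (4 to 7, and 5 to 7), beside 0.422%. It was 0 in every run for zone 1 against zone 2, dpc8 against NP and the differences between zones (0.139%, 0.018% and 0.0174%). The 11 include Hsd3b5 at dpc8, which passed the filter only through groups where it is high. A left-out library enters only 1 of the summed zone contrasts, so the sum can stay near while calls are lost. The calls of Srd5a1 at dpc16, Hsd3b5 at dpc8 and Akr1c6 in NP were each lost for 5 of 6 libraries. Counts for dpc16 moved further. For dpc16 against NP 1.78% of all gene tests passed. The count of 1 became 0 without the filter and when only the compared groups were fitted. It became 7 with array weights, 4 without the Y-linked libraries, 3 with the connective tissue covariate and 0 to 3 with 1 library left out. Over all genes in zone 3, 97 rose and 74 fell in the main fit, against 400 and 376 with array weights. They were 261 and 207 without the Y-linked libraries, 238 and 324 with the covariate and 26 and 14 with only the compared groups. For dpc16 against dpc8 1.63% of all gene tests passed. The count of 0 became 9 with array weights, 6 without the Y-linked libraries and 4 when only the compared groups were fitted. It became 2 with the covariate, 1 with the replicate block and 0 to 5 with 1 library left out. Over all genes in zone 3, 76 rose and 102 fell in the main fit, against 775 and 792 with array weights. They were 256 and 245 without the Y-linked libraries and 61 and 91 with only the compared groups. For stages averaged over zones 5.96% of all gene tests passed. The count of 3 became 8, 6 and 7 with array weights, without the Y-linked libraries and with the covariate. It was 2 in the lowest alternative, and 2 to 7 with 1 library left out. Over all genes, 732 rose and 797 fell at dpc16 against NP in the main fit. These became 1495 and 1406, 1106 and 1042, and 1336 and 1322 under the same 3 settings in that order. The cause was not tested.

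The labels do not say that a replicate number marks a shared animal. Libraries of the same number deviated together between zones at dpc16 (9 of 9 correlations over 0.1, r 0.263 to 0.863). They did not throughout at NP (4 of 9) or dpc8 (5 of 9) or between stages (11 of 27), so the numbers were not taken as pairs. If dpc16 zones of 1 number share an animal or experiment, the p-values averaged over zones are too small. Averaged over zones, 732 genes rose and 797 fell at dpc16 against NP, and 434 and 447 with the replicate block. With the replicate block (consensus correlation 0.193) Hsd3b5 in NP zone 1 against zone 3 (adjusted p = 0.0369) and Srd5a1 in zone 3 at dpc16 against dpc8 (0.0404) passed. At dpc16 against NP averaged over zones, the calls of Hsd3b3 (0.0822) and, of the wider pathway, of Hsd3b1, Akr1c13, Hsd17b13, Hsd3b7 and Akr1c20 (0.065 to 0.131) were lost with the block. It changed no other call of the genes named.

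Signs turned for a few differences that were not called. For Hsd17b2 these were zone 1 against zone 3 in NP (0.14 with array weights, 0.43 without the Y-linked libraries, -0.69 to 0.30 with 1 library left out) and dpc16 against NP in zone 1 (-0.57 with array weights, -0.52 without the Y-linked libraries, -0.15 with the covariate, -0.5221 to 0.467 with 1 library left out). For Akr1d1, zone 1 against zone 3 ranged from -0.66 to 0.0902 in NP, from -0.6956 to 0.0163 at dpc8 (0.0163 also without the Y-linked libraries) and from -0.63 to 0.29 at dpc16. For Cyp17a1, dpc16 against dpc8 in zone 3 ranged from -0.0998, without dpc16 replicate 2, to 1.37. Depth limits Hsd3b5 in zone 1, where its highest value rests on about 2.95 reads.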

Other observations

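Hsd3b6, a further Hsd3b isozyme known from placental giant cells and from steroid-producing cells, was looked at after its values were seen and was not tested, since it reached 1 FPKM in 2 libraries only. It was at 32.9 FPKM in dpc16 zone 2 replicate 3 and at 13.9 FPKM in dpc16 zone 3 replicate 3, and at 0.895 FPKM or less in the other 25 libraries. Cyp11a1 was also above 0 in these 2 libraries, at 0.437 and 0.0678 FPKM, and listed at 0 in the other 25. Both are among the 6 libraries with Y-linked FPKM, and the other 4 such libraries held at most 0.183 FPKM of Hsd3b6. Hsd3b2 and Hsd3b3 share read-length windows with Hsd3b6 and were at 8.17 and 54.8 FPKM in the zone 2 library and at 12.7 and 96.0 FPKM in the zone 3 library. Where this RNA came from was not tested.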
